A study of Mus musculus with 24 samples.

Results

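The macrophage and myeloid genes are a set of 41 genes that mark macrophages and their relatives, among them lysozyme, scavenger and Fc receptors, complement C1q, integrins and chemokines. A gene entered when the platform annotation gave its symbol alone to a probe set of the array, and its brightest probe set by mean signal over the 24 arrays stood for it. In all, 36 of the 41 were measured, out of 8251 genes on the array, and Ear1, Ear2, Plek, Lyn and Clec7a had no matching probe set. The tested cells were 11 cell lines (A2B1, A2C12, B3, betaD5, betaD10, cRAF_cMYC, gammaA3, gammaA7, gammaB8, gammaD1 and gammaD12). The line called gammaB8 in its array titles is called gammaA8 in another label of the same arrays. All lines were grown from lung tumours of 8-month-old mice that carried both a c-Myc and a c-Raf transgene, were kept in medium with 10% fetal calf serum and were passaged up to 50 times. No source used here gives the promoter that drove the transgenes. The control was alveolar type II cells, which make surfactant and line the air sacs, taken fresh from healthy mice without the transgenes. There were 22 tumour arrays (5 lines with 3 arrays, 1 with 2 and 5 with 1) and 2 control arrays, here called control array 1 (AT in the labels) and control array 2 (AT2).

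Alveolar macrophages live on the same air surface as type II cells, where they take up surfactant, dust and microbes. They carry scavenger and pattern receptors, store degraded material in lysosomes rich in cathepsins, and depend on the transcription factor PU.1 and on growth factor signals. Macrophages of the lung tissue and monocytes share many of these genes, and the tissue macrophages carry more C1q and CSF1 receptor. Per the labels' protocols the control lungs were perfused free of blood and lavaged before digestion with trypsin, and the cells were then taken from a Percoll density gradient, a step that selects by density and not by a surface marker.

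The labelled cell type of the control was checked first. Surfactant protein B (Sftpb), a type II product, had a signal of 194 on control array 1 and 7067 on control array 2. Slc34a2, the phosphate transporter of type II cells, had 58.5 on control array 1 and 5029 on control array 2. Of 9 measured type II markers, 8 were at least 2-fold lower on control array 1. Their summed signal was 2312 on control array 1 and 33900 on control array 2, and 137 to 287 on the tumour arrays. Control array 1 therefore carried little of the RNA that defines its labelled cell type, and the comparison over all members is also given against each control array alone. Signals were scaled by their authors to a common trimmed mean on each array. The median signal of an array lay between 53.2 and 75.5 for the tumour lines, and was 93.8 for control array 1 and 107.7 for control array 2.

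The first comparison set the tumour lines against the control preparations across all 36 members, on the scale log2(signal + 32). The lines held almost none of the set. In all, 34 of 36 members were lower in the lines at a limma adjusted p under 0.05 and at least 2-fold, and 0 were higher, whereas 16.9% of all 12422 probe sets were called lower and 10.1% higher. The median log2 difference of the members was -3.55, against -0.11 over all probe sets. Its size depended on the offset, since most line signals lay far below 32: it was -5.61 with an offset of 1 and -2.55 with an offset of 100. The median log2 level of the members was 5.49 in the lines, 10.10 on control array 1 and 10.02 on control array 2. Their summed signal was 3111 to 9424 on the tumour arrays, 82010 on control array 1 and 53300 on control array 2. All 11 lines lay below both control arrays for 34 of 36 members, against 28.2% of all probe sets. The exceptions were Lgals3 and Cd14, each with 10 lines below both. In whole preparations, fewer cells of a type and less RNA per cell cannot be told apart, and passage in culture and transformation cannot be told apart either.

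**Figure D1:**
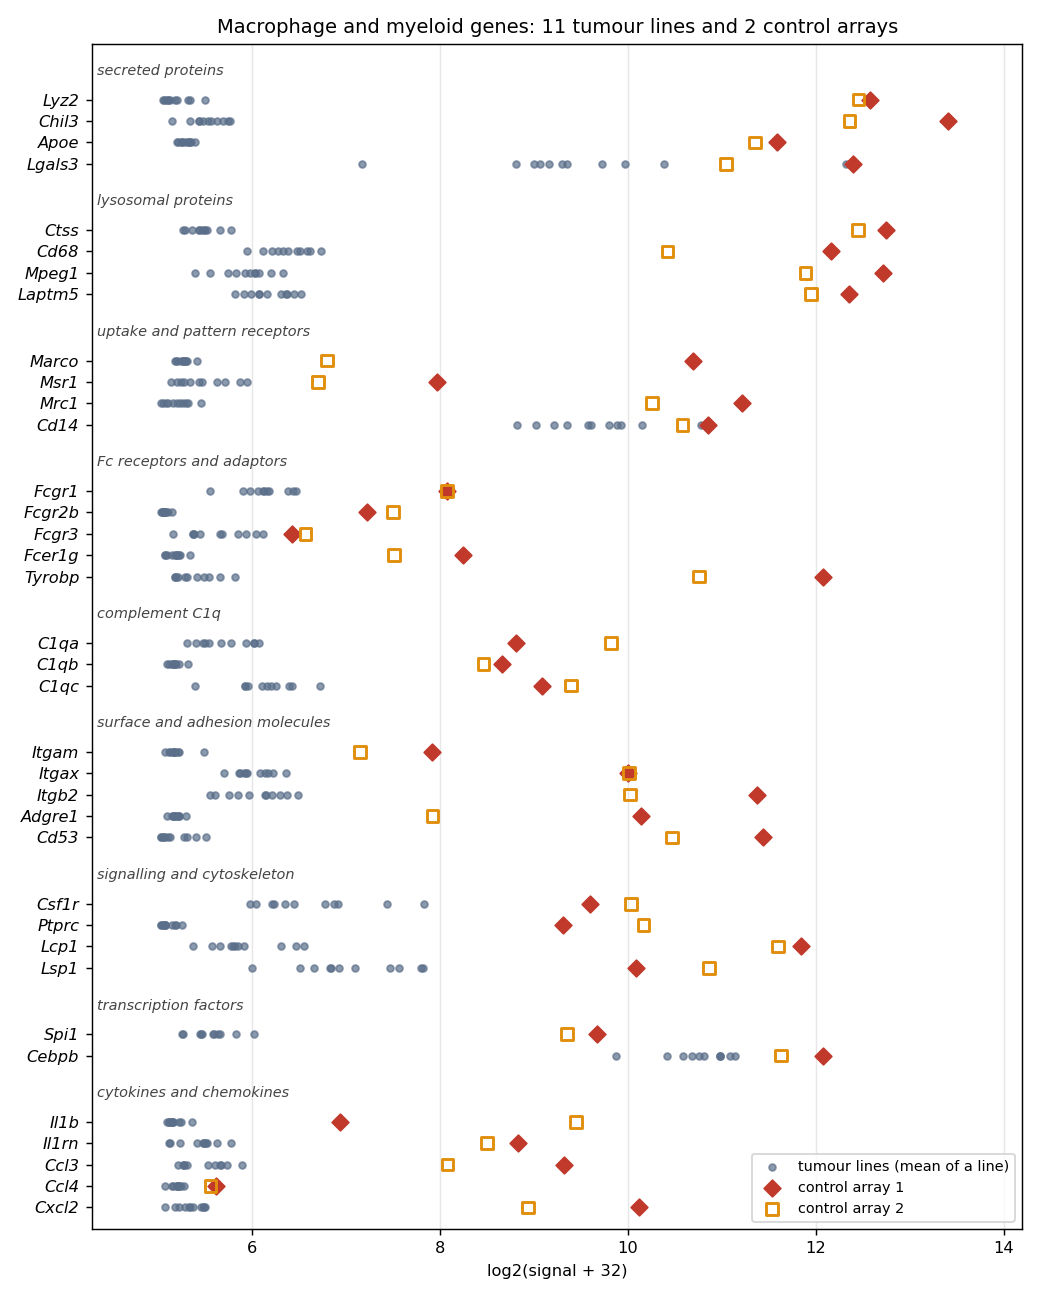
Level of each of the 36 measured members as log2(signal + 32), grouped by role. Small circles are the means of the 11 tumour lines, filled diamonds are control array 1 and open squares are control array 2. Most members sit near the low end of the axis in the lines and far to the right on both control arrays, whereas Lgals3, Cd14 and Cebpb keep high levels in the lines.

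Each control array alone gave the same direction. Against control array 1 the median log2 difference of the members was -3.90 (all probe sets -0.07) and 32 members were called lower, where 13.7% of all probe sets were. Against control array 2 it was -3.69 (all probe sets -0.13) and 31 were called lower, where 19.7% of all probe sets were. The comparisons use the same 11 lines, so they are not independent of each other. The macrophage receptor Marco differed most between them, with a log2 difference of -5.42 against control array 1 and of -1.53 against control array 2. The cytokine Il1b differed most the other way, with -1.76 against control array 1 and -4.28 against control array 2.

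**Figure D2:**
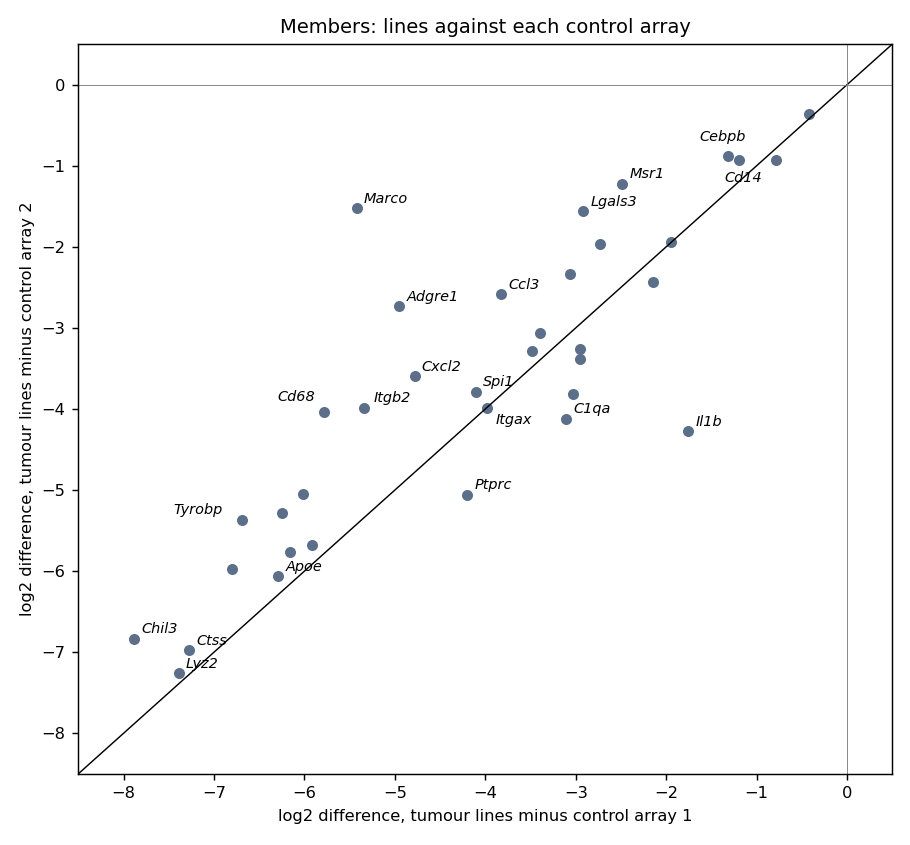
Log2 difference of each of the 36 members between the mean of the 11 tumour lines and control array 1 (horizontal axis) or control array 2 (vertical axis); the diagonal marks equal differences. Marco (-5.42 and -1.53) and Il1b (-1.76 and -4.28) lie furthest from the diagonal on opposite sides.

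Both measured transcription factors were lower in the lines, by very different amounts. Spi1 encodes PU.1, the factor that macrophage and granulocyte precursors need. Its signal ran from 6.19 to 33.2 in the 11 lines with a median of 16.4, against 784 and 623 on control arrays 1 and 2. No line came near either control array, and the log2 difference was -3.95 (SE 0.17, limma adjusted p = 5.23e-10). Cebpb encodes C/EBP-beta, a factor of activated macrophages that many epithelial and mesenchymal cells also make. Its signal ran from 907 to 2277 in the lines with a median of 1824, against 4279 and 3138 on control arrays 1 and 2. All 11 lines were below both control arrays but stayed bright, with a log2 difference of -1.10 (SE 0.26, adjusted p = 0.00257). Against control array 2 alone the difference of Cebpb was -0.88 and was not called (adjusted p = 0.0555), nor was it after centring each array on its median (-0.56, adjusted p = 0.0758).

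PU.1 is known to bind purine-rich sites around the core GAGGAA, so the promoters of the members were searched for it because they moved together. RefSeq windows of the build GRCm38.p6, from 250 bases before to 50 after a start site, matched 26 member genes with 33 windows. The word GAGGAA, or TTCCTC on the other strand, lay in 17 of the 33 windows (51.5%, 15 genes), against 28.3% of all 32851 promoter windows. Windows of one gene can overlap, and those of Fcgr3 hold the same match, which was counted in each. The shares were not tested. The longer word GAGGAAGT, or ACTTCCTC on the other strand, contains GAGGAA, so its matches are counted in both. It lay in 3 of the 33 windows (9.09%), those of C1qc, Cd53 and Ctss, against 3.20% of all windows. The core was in no window of 11 of the 26 genes, among them Chil3, Lyz2, Mpeg1 and Lcp1, which fell far in the lines, and Lgals3 and Cebpb, which the lines kept. The C/EBP palindrome TTGCGCAA lay in 0 member windows, against 0.183% of all windows. A match is a description of letters and not a binding site. The 3 windows with the longer word are printed with that of Itgam, which holds the core at 3 places, and that of Chil3, which holds none. Chil3 had one of the largest differences of the set. Each reads 5′ to 3′ along the gene's strand, and capitals mark the matched words.
Ctss, chr3:95526536-95526835, plus strand: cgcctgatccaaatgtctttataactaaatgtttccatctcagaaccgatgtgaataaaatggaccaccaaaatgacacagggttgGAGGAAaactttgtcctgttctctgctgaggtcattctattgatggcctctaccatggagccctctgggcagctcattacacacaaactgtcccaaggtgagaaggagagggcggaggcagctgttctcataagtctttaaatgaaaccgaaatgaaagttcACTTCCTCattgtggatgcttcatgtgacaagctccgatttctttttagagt
Cd53, chr3:106790100-106790399, minus strand: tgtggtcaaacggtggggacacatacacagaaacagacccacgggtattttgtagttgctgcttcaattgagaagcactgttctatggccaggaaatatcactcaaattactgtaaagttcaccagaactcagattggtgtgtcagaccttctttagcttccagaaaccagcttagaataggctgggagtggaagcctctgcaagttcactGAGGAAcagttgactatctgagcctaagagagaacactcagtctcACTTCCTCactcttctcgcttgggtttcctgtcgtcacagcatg
C1qc, chr4:136892865-136893164, minus strand: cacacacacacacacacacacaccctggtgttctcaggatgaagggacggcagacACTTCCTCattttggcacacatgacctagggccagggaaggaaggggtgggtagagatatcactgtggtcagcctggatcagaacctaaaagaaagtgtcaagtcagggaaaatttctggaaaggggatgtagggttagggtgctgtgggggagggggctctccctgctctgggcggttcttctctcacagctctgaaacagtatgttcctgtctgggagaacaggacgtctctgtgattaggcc
Itgam, chr7:128062390-128062689, plus strand: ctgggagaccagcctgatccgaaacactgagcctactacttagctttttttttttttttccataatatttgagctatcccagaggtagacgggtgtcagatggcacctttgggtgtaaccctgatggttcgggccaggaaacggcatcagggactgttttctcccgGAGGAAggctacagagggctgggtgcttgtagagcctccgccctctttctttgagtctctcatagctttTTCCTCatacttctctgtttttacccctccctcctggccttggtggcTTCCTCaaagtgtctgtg
Chil3, chr3:106167515-106167814, minus strand: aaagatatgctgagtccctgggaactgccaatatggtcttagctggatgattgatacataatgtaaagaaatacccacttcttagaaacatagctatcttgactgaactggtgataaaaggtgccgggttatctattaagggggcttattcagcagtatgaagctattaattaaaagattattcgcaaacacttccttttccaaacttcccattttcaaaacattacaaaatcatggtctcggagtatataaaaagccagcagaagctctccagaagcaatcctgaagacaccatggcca

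All 4 measured secreted proteins were lower in the lines, and 3 of them were among the deepest falls of the set. Chil3, the chitinase-like lectin that alveolar macrophages secrete, had 3.65 to 26.3 in the lines with a median of 14.6, against 10852 and 5224 on control arrays 1 and 2. It was bright on both control arrays and dim in every line, with a log2 difference of -7.36 (SE 0.21, adjusted p = 6.97e-12). Lyz2, the lysozyme of macrophages that type II cells of the mouse also make, had 1.28 to 15.6 in the lines with a median of 3.09, against 6099 and 5582 on control arrays 1 and 2. Its log2 difference was -7.33 (SE 0.12, adjusted p = 9.36e-15). Apoe, the lipid-carrying apolipoprotein of macrophages and hepatocytes, had 4.99 to 10.1 in the lines, against 3040 and 2586 on control arrays 1 and 2. The smallest difference in the group was that of galectin 3 (Lgals3), a sugar-binding protein also made by epithelial and tumour cells. It had 418 to 5143 in the lines with a median of 655, against 5377 and 2082 on control arrays 1 and 2. Line A2C12 lay above control array 2, so the groups overlapped. The log2 difference of Lgals3 was -2.24 (SE 0.85, adjusted p = 0.0381), and it was not called against control array 1 (adjusted p = 0.0642) or control array 2 alone (adjusted p = 0.302).

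All 4 lysosomal proteins were lower in the lines. Ctss, cathepsin S, a protease of antigen-presenting cells, had 6.58 to 23.0 in the lines with a median of 12.5, against 6865 and 5571 on control arrays 1 and 2. Both control arrays stood far above every line, with a log2 difference of -7.13 (SE 0.13, adjusted p = 3.97e-14). Its promoter, printed above, holds the longer PU.1 word at the start site. Cd68, a membrane glycoprotein of lysosomes, had the smallest difference of the group, with 29.8 to 74.5 in the lines and a median of 51.8, against 4562 and 1342 on control arrays 1 and 2. Its log2 difference was -4.91 (SE 0.31, adjusted p = 2.58e-08). Between them lay Mpeg1, a pore-forming protein of phagosomes (log2 difference -6.39), and Laptm5, a lysosomal membrane protein of blood cells (-5.96).

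The 4 measured uptake and pattern receptors were lower in the lines, with log2 differences from -5.53 to -1.07. Mrc1, the mannose receptor, had 0.685 to 12.3 in the lines with a median of 5.12, against 2351 and 1191 on control arrays 1 and 2. No line approached either control array, and its log2 difference was -5.53 (SE 0.18, adjusted p = 3.19e-11). Cd14, which binds bacterial lipopolysaccharide, had 433 to 1727 in the lines with a median of 750.4, against 1814 and 1503 on control arrays 1 and 2. Line betaD5 lay between the control arrays and the other 10 lines below both. The log2 difference of Cd14 was -1.07 (SE 0.37, adjusted p = 0.0262), and it was not called against control array 1 (adjusted p = 0.0883) or control array 2 alone (adjusted p = 0.163), nor after centring each array on its median (-0.53, adjusted p = 0.235). The scavenger receptors Marco and Msr1 were called lower, with log2 differences of -3.48 and -1.86, and are described with the control arrays below.

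Of the 5 measured Fc receptors and adaptors, 4 were lower in the lines. Tyrobp, the adaptor (DAP12) that carries signals of activating myeloid receptors, had 4.42 to 24.5 in the lines with a median of 7.84, against 4306 and 1698 on control arrays 1 and 2. All lines were near the floor of the scale, and the log2 difference was -6.03 (SE 0.25, adjusted p = 3.49e-10). Fcer1g, the gamma chain shared by Fc receptors, stood at -2.70, Fcgr2b, the inhibitory Fc receptor, at -2.29 and Fcgr1, the high-affinity receptor for IgG, at -1.95. Fcgr3, a low-affinity receptor, had 3.82 to 37.4 in the lines with a median of 18.6, against 54.2 and 63.2 on control arrays 1 and 2. It was dim on both control arrays, under their median signals. Its log2 difference of -0.86 (SE 0.22, adjusted p = 0.00447) was under the 2-fold threshold, with all 11 lines below both control arrays.

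The 3 chains of C1q, the recognition molecule of the classical complement pathway, were lower together. C1qa had 7.77 to 35.5 in the lines with a median of 19.8, against 419 and 875 on control arrays 1 and 2, a log2 difference of -3.61 (SE 0.24, adjusted p = 5.68e-08). C1qc had 10.2 to 74.1 in the lines with a median of 39.7, against 514 and 644 on control arrays 1 and 2, a log2 difference of -3.11 (SE 0.24, adjusted p = 2.21e-07). C1qb stood between them at -3.39. No line reached either control array for any of the 3 chains.

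All 5 surface and adhesion molecules were lower. Cd53, a tetraspanin of white blood cells, had 0.779 to 14.9 in the lines with a median of 2.57, against 2737 and 1389 on control arrays 1 and 2. Its log2 difference was the largest of the group, -5.77 (SE 0.19, adjusted p = 3.57e-11). Itgam, the integrin chain CD11b, had 1.74 to 13.1 in the lines with a median of 4.12, against 210.5 and 110.5 on control arrays 1 and 2. Its log2 difference was -2.35 (SE 0.15, adjusted p = 3.18e-08) and -4.92 with an offset of 1, with every line under both control arrays. Itgb2, the chain that pairs with Itgam, stood at -4.66, Itgax, the CD11c chain that alveolar macrophages carry, at -3.99, and Adgre1, the F4/80 antigen, at -3.84.

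The 4 measured signalling and cytoskeletal genes were lower as well. Lcp1, the actin-bundling plastin of white blood cells, had 9.55 to 64.0 in the lines with a median of 25.7, against 3631 and 3069 on control arrays 1 and 2. Its log2 difference was -5.80 (SE 0.26, adjusted p = 7.06e-10), with a wide gap between every line and both control arrays. Csf1r, the receptor for the macrophage growth factor CSF1, had 31.1 to 196.7 in the lines with a median of 56.2, against 745 and 1018 on control arrays 1 and 2. Its log2 difference was -3.17 (SE 0.40, adjusted p = 1.60e-05), and it was brightest in betaD5. Another probe set of Csf1r, dim on all arrays, was not called. Ptprc, the CD45 phosphatase of all white blood cells, stood at -4.63 and Lsp1, an actin-binding protein of lymphocytes and phagocytes, at -3.42.

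Of 5 cytokines and chemokines, 4 were lower. Cxcl2, which draws neutrophils, had 1.76 to 14.1 in the lines with a median of 9.27, against 1084 and 459 on control arrays 1 and 2. All lines were near the floor, and its log2 difference was -4.19 (SE 0.21, adjusted p = 2.47e-09). The interleukin 1 receptor antagonist Il1rn stood at -3.23, the chemokine Ccl3 at -3.20 and Il1b at -3.02. Ccl4 had 1.82 to 6.92 in the lines with a median of 4.88, against 17.2 and 15.2 on control arrays 1 and 2. It was dim on every array, and its log2 difference of -0.39 (SE 0.076, adjusted p = 0.000644) was under the 2-fold threshold. Centring each array on its median turned the difference of Ccl4 to 0.14.

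The control arrays were then set against each other, with 1 array each and so with no test. The set was bright on both, with 33 of 36 members above the array's median on control array 1 and 32 on control array 2, 31 of them on both. In all, 10 members were at least 2-fold higher on control array 1 (4.31% of all probe sets were), 2 were at least 2-fold higher on control array 2 (6.4% of all probe sets were), and 24 lay within 2-fold. In either direction 12 of 36 members stood at least 2-fold apart, against 10.7% of all probe sets. Between 16 pairs of arrays of one line, 0.185% to 8.69% of all probe sets (median 2.68%) and 0 to 3 members stood that far apart. Most members were dim in the lines, where the offset of 32 compresses differences, so that member count is not a like measure. Lyz2 at 30.4 and 0.894 on the 2 arrays of A2B1, for example, lay within 2-fold on this scale. The median log2 difference between control array 1 and control array 2 was 0.32 over the members and -0.03 over all probe sets.

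**Figure D3:**
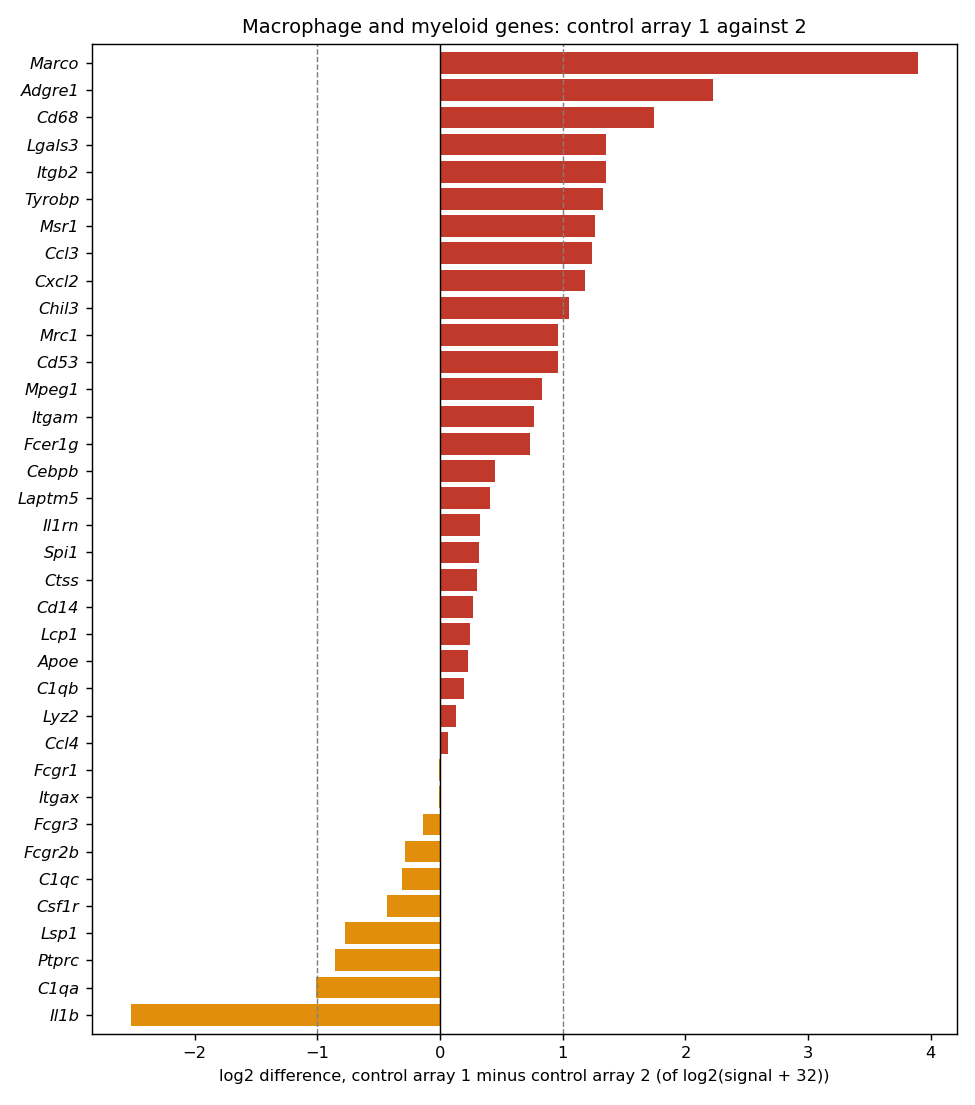
Log2 difference of each of the 36 members between control array 1 and control array 2, sorted; bars to the right are higher on control array 1 and dashed lines mark 2-fold. Marco (3.90) and Il1b (-2.52) stand at the ends, and 24 members lie between the dashed lines.

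Of the 4 members on the alveolar macrophage list, Marco and Chil3 were at least 2-fold higher on control array 1, while Mrc1 (0.96) and Itgax (-0.01) lay within 2-fold. Marco, a scavenger receptor of alveolar macrophages, had a signal of 1626 on control array 1 and 79.4 on control array 2, a log2 difference of 3.90. On control array 2 it lay under the array's median of 107.7. Adgre1 had 1099.9 on control array 1 and 210.6 on control array 2 (log2 difference 2.22). Cd68 had 4562 on control array 1 and 1342 on control array 2 (1.74). These 3 had the widest gaps in that direction. Lgals3 (1.36), Itgb2 (1.35), Tyrobp (1.33), the scavenger receptor Msr1 (1.26), Ccl3 (1.24), Cxcl2 (1.18) and Chil3 (1.05) followed. The members higher on control array 2 were Il1b, an inflammatory cytokine, with 90.3 on control array 1 and 668 on control array 2 (log2 difference -2.52), and C1qa, with 419 on control array 1 and 875 on control array 2 (-1.01). The smallest gaps were those of Fcgr1 (-0.0050), Itgax (-0.01), Ccl4 (0.06) and Lyz2 (0.13).

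Marker lists of other cell types differed between the control arrays as well. Of 12 measured alveolar macrophage genes, 4 of them members, 6 were at least 2-fold higher on control array 1 and 0 on control array 2. Ctsk, the cathepsin of that list with the largest difference after Marco, had 5772 on control array 1 and 1058 on control array 2. The summed signal of the list was 33370 on control array 1 and 14050 on control array 2, and 1948 to 3720 on the tumour arrays. Of 11 interstitial macrophage or monocyte genes, 8 of them members, 1 (Adgre1) was higher on control array 1 and 2 on control array 2. The monocyte receptor Ccr2 had 14.6 on control array 1 and 564 on control array 2. The summed signal of that list was 5542 on control array 1 and 5629 on control array 2, and 601 to 2130 on the tumour arrays.

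Lists of other blood cells or of antigen presentation had higher summed signals on control array 2. Of 11 neutrophil genes, 3 were at least 2-fold higher there and 0 on control array 1. Ltf had 29.0 on control array 1 and 1721 on control array 2, and S100a9 had 3.81 and 575 on the same arrays. Most neutrophil genes lay within 2-fold, among them S100a8 with 575 on control array 1 and 1085 on control array 2. Lcn2, with 961 and 860, was bright on both. Of 10 dendritic cell or antigen presentation genes, 5 were higher on control array 2: H2-Aa, H2-Ab1, H2-Eb1, Cd74 and Ccr7. H2-Aa had 11.5 on control array 1 and 4889.5 on control array 2, and H2-Eb1 had 26.7 and 3565. Cd74 had 311 on control array 1 and 7700 on control array 2. Ciita, Flt3, Cd83, Ccl22 and Ccl17 lay within 2-fold. Which cells the RNAs of this list came from was not tested, and type II markers were also higher on control array 2. Of 7 B cell genes, 6 were higher there, with the immunoglobulin chain Ighm at 15.4 on control array 1 and 3687 on control array 2 and Cd79b at 12.2 and 532. Of 10 T or killer cell genes, 8 were higher there, among them Thy1, with 10.1 on control array 1 and 258 on control array 2, and Gzma, with 19.4 and 187. None of these 4 lists had a gene at least 2-fold higher on control array 1. Ptprc, the member that all white blood cells express, had 602 on control array 1 and 1119 on control array 2.

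Summed signals put sizes on these lists. They were 2223 on control array 1 and 5344 on control array 2 for neutrophil genes (169 to 699 on the tumour arrays), 972 and 19820 for dendritic cell or antigen presentation genes (246 to 492), 341 and 6048 for B cell genes (88.7 to 292) and 288 and 1417 for T or killer cell genes (64.7 to 1443). Mast cell or basophil genes summed to 188 on control array 1 and 247 on control array 2 (40 to 369 on the tumour arrays), with Kit at 44.4 and 129 and Ms4a2 at 5.28 and 30.1. Endothelial genes summed to 1356 and 3143 (824 to 3850), with Cldn5 at 104 and 551 and Cdh5 at 155 and 455. Of the 8 measured, 7 were called lower in the lines. Eng was called higher, with 849 to 3737 in the lines against 519 and 876 on control arrays 1 and 2. Among T or killer cell genes, Thy1, which is also on the fibroblast list, ran from 4.04 to 593 in the lines with a median of 9.14. Club or ciliated cell genes summed to 7390 and 19890 (262 to 598), with Cyp2f2 at 479 and 6796 and Foxj1 at 503.5 and 1496. Fibroblast genes summed to 5460 and 3162 (5651 to 27200), with Col1a1 at 1146.5 and 164. The part of any of these cell types in the values of the members was not tested. No marker that was measured had a signal of exactly 0 on a control array.

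**Figure D4:**
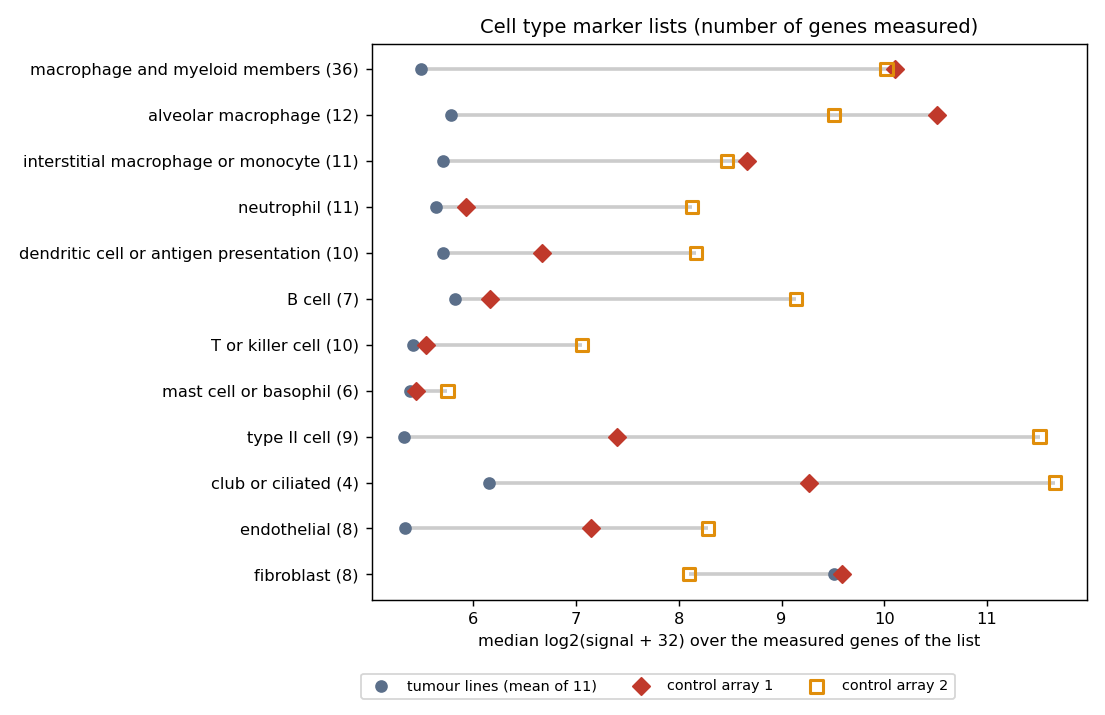
Median log2(signal + 32) over the measured genes of each marker list, with the number of genes in brackets, in the tumour lines (circles, mean of 11), on control array 1 (diamonds) and on control array 2 (squares). The members sit near 10 on both control arrays, whereas the type II, B cell, club or ciliated, neutrophil, dendritic cell, T or killer cell and endothelial lists are higher on control array 2.

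A member was counted as kept by a line when its log2 level there lay above the median of all probe sets in that line. Only Lgals3, Cd14 and Cebpb were kept by all 11 lines, 3 of 36 members, whereas 42.7% of all probe sets were. In contrast, 28 members were above the median in 0 lines, where 42.5% of all probe sets were. The members are each represented by their brightest probe set, while the percentages count every probe set. As background, all 3 genes are also known from cells outside the myeloid lineage. Cd14 was brightest in betaD5 (1727) and dimmest in gammaB8 (433). Cebpb was brightest in gammaA7 (2277) and dimmest in gammaD12 (907). The 5 lines with 1 array, betaD5 and gammaD12 among them, have only an array without a replicate number. For any member, the rank of these lines cannot be told apart from that kind of array. Within lines, such arrays gave less Cebpb (log2 difference -0.48, limma adjusted p = 0.020). For Cd14 they leaned the other way (0.57, limma adjusted p = 0.0709). Lgals3 was brightest in A2C12 (5143), where the 3 arrays gave 5729, 5560 and 4141. It was not steady in other lines: the arrays of gammaA7 gave 1952, 11.0 and 3.06, and those of cRAF_cMYC gave 2098, 1521 and 14.3. Without replicate 2 of gammaA7 it was no longer above the median in all lines.

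A further 5 members were above the median in some lines. Lsp1 was kept by 10 lines, all but gammaD12, and ran from 32.1 there to 194.9 in gammaA7, against 1054.5 and 1829 on control arrays 1 and 2. Csf1r was kept by 5 lines and was brightest in betaD5 (197) and A2C12 (151). Cd68 was kept by 3 lines, and C1qc and Lcp1 by 1 line each. All 5 were called lower than the control in the lines, and every line lay below both control arrays for each of them.

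**Figure D5:**
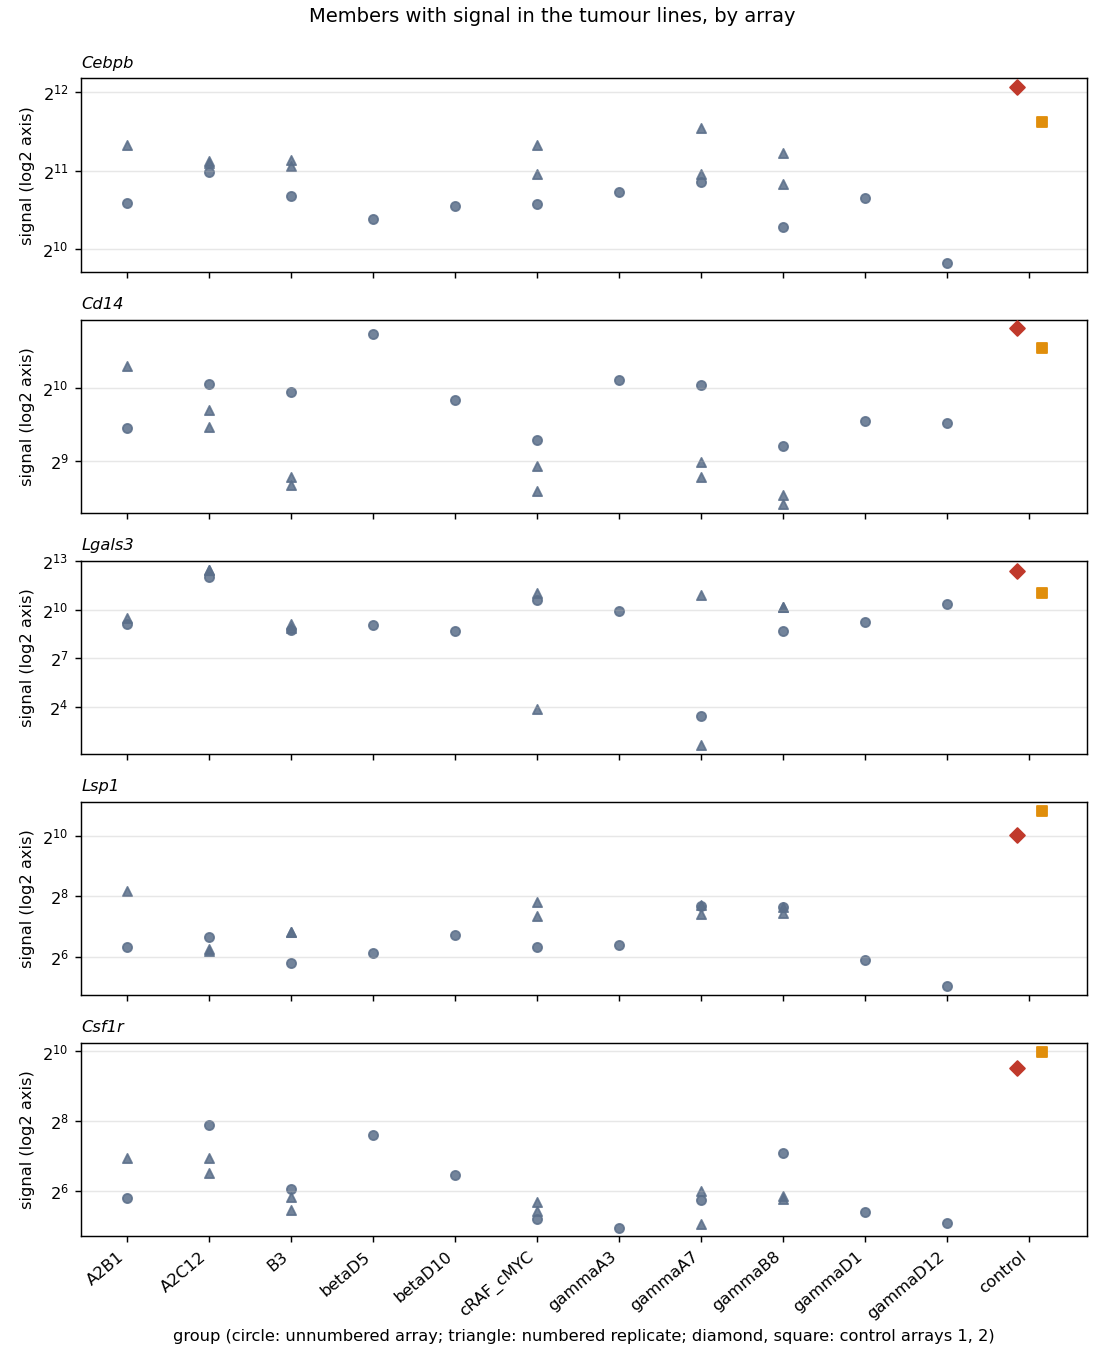
Signal on a log2 axis on every array for Cebpb, Cd14, Lgals3, Lsp1 and Csf1r, by line and for the control arrays at the right. Circles are unnumbered arrays, triangles numbered replicates, the diamond control array 1 and the square control array 2. The widest gaps between arrays of one line are those of Lgals3 in cRAF_cMYC and gammaA7.

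The lines were compared with each other by an F-test over the 11 line means. The spread came from arrays of one line and also from the gap between the 2 control arrays. It was therefore inflated for members whose control arrays lay far apart, which makes the test weak for them. For Marco the residual SD was 0.807, where the SD of its line means was 0.064. None of the 36 members passed at a limma adjusted p under 0.05, where 2.16% of all probe sets (268) did, and 3 members had an unadjusted p under 0.05. These were Csf1r (adjusted p = 0.144), Lsp1 (adjusted p = 0.227) and Cd14 (adjusted p = 0.271). A dimmer probe set of Lcp1 did pass the F-test (limma adjusted p = 0.0320), with 1.87 to 36.9 in the lines. Line means of Csf1r spanned 1.86 on the log2 scale, of Lsp1 1.82 and of Cd14 1.96. Their residual SDs, between arrays of a line and between the control arrays, were 0.405, 0.476 and 0.484. Lgals3 had the widest span, 5.15, and the widest residual SD, 1.89, and did not pass (adjusted p = 0.551). On the numbered arrays of 6 lines alone, 7 members passed (Lyz2, Chil3, Cd14, Fcgr1, Csf1r, Lcp1 and Lsp1), where 26.3% of all probe sets did.

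Single lines were set against the control too, in 11 contrasts that share the same control arrays. The count of members called lower was smallest in A2C12, with 31 (18.1% of all probe sets were), and largest in gammaA7, with 34 (16.6% of all probe sets were). Over the 11 lines the share of all probe sets called lower was 13.5% to 18.6%, and 0 members were called higher in any line. The members not called lower in a line came from the same 5 genes throughout: Lgals3, Cd14, Cebpb, Fcgr3 and Ccl4. Medians of the members' log2 differences ran from -3.40 in gammaB8 to -3.83 in gammaD1. Within the 6 lines that had both kinds, unnumbered arrays were also compared with numbered ones, and 0 members were called at 2-fold, where 0.362% of all probe sets were. Past an adjusted p of 0.05 but under 2-fold were Itgb2, with a log2 difference of -0.86 (limma adjusted p = 0.0244), Cebpb at -0.48 (adjusted p = 0.020) and Fcgr1 at -0.35 (adjusted p = 0.0360), each lower on unnumbered arrays.

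Other phagocyte genes outside the set were read the same way. Of 96 listed genes 75 were measured, and 56 were lower in the lines (16.9% of all probe sets were) and 2 higher (10.1% of all probe sets were), with a median log2 difference of -2.09. By role, 4 of 5 oxidase genes, 12 of 13 kinase and immune signalling genes, 10 of 11 growth factor and chemokine receptors, 5 of 7 pattern and uptake receptors, 6 of 9 transcription factors, 13 of 16 genes for lysosomes and lipid handling and 6 of 14 secreted factors were lower. The largest falls were in Ctsk, which had 38.5 ± 27.3 in the lines (SD, n = 11) against 5772 and 1058 on control arrays 1 and 2 (log2 difference -5.28, SE 0.48), and in the lipase Lpl (-5.27, SE 0.40). The macrophage elastase Mmp12 (-5.06, SE 0.37) and cathepsin H (Ctsh, -5.01, SE 0.33), a protease that type II cells also make, followed. Adjusted p of these 4 lay between 4.53e-08 and 9.70e-07. Against control arrays 1 and 2 alone the differences were -6.49 and -4.08 for Ctsk and -6.10 and -4.02 for Mmp12.

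Both genes that were higher were chemokines that draw monocytes. Ccl7 had 1664 ± 496 in the lines (SD, n = 11), against 518 and 105 on control arrays 1 and 2, a log2 difference of 2.42 (SE 0.47, adjusted p = 0.000665). Ccl2 had 5758 ± 1528 in the lines, against 3863 and 240.3 on control arrays 1 and 2, a log2 difference of 2.38 (SE 0.62, adjusted p = 0.00530). Without control array 2 the difference of Ccl7 was 1.42 and that of Ccl2 was 0.46, which was not called. Between the control arrays, 22 of the 75 genes were at least 2-fold higher on control array 1 and 3 on control array 2. Of the 22, 10 were genes for lysosomes and lipid handling and 9 were secreted factors.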

How the data were processed

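The deposited values of 24 Affymetrix mouse arrays are intensity signals on a linear scale, 1 per probe set. GCOS made them, per the submitters' processing notes. Their mean, without the 2% lowest and the 2% highest, was 250 on every array, so the authors had scaled arrays to one trimmed mean and differences are relative to each sample's other RNAs. No source used here states a background correction or detection calls. The table held 12488 probe sets. The 66 Affymetrix controls were left out and the other 12422 were tested as log2(signal + 32), which compresses dim signals, with no filter (31 measured members would pass one on signals above the array median on at least 2 arrays). The platform annotation gave 1 gene symbol to 10833 of them, several to 396 and none to 1193, and a probe set with several named no gene.

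In limma 3.58.1 (R 4.3.3), 11 line means were fitted against 2 control arrays (11 residual degrees of freedom). The spread comes mostly from the lines, so SE and p understate the uncertainty where the control arrays lie apart. A fit of 12 group means over 24 arrays (12 residual degrees of freedom) gave single-line contrasts and the F-test. P-values were adjusted by Benjamini-Hochberg over all probe sets, and both fits were tested on simulated data. For the fit of lines against control, the simulated control arrays were drawn with the spread of the line means. That simulation therefore did not cover control arrays that lie further apart than lines do, and it is no check on such members. Nothing in the labels ties repeat arrays to separate cultures or animals, so p-values measure only the spread between these samples, which may be technical.

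The members, marker lists and other phagocyte genes were chosen with earlier results of these data known. Full values were given for members with the largest and smallest difference in each role group, those furthest apart between the control arrays, kept members, the 4 largest falls and the rises among other phagocyte genes, and up to 2 genes per marker list. Alternatives covered normalization, offset, floor, filter, averaging of a gene's probe sets, subsets of arrays, the line as a random block, the variance model, the fold threshold and leaving out each array.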

Additional observations from a re-analysis of the deposited data

How the results depend on the processing

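Over every alternative, 0 members were called higher in the lines and 29 of 36 members kept their call. Members called lower numbered 33 to 34 when single tumour arrays were left out, where 16.4% to 17.3% of all probe sets were. Results against each control array alone are given above. With no minimum fold 36 members were lower (33.7% of all probe sets), and 30 at 4-fold (5.22%). After centring arrays on their medians 31 were lower (8.77%), and 35 with an offset of 1 (26.2%). The filter on dim probe sets left 31 members, all called lower (21.4% of probe sets left). All 31 lay above the median on both control arrays and would pass through these alone, so that count is no check. The calls that changed were those of Lgals3 under 13 alternatives, Cd14 under 6 (centring among them, as for Lgals3 and Cebpb), Cebpb under 4, Ccl4 and Fcgr3 under 2 each, and Msr1 and Fcgr1 at 4-fold. Ccl4 turned to 0.14 after centring. Centring moved the median log2 difference of all probe sets to 0.42, where it was -0.11 as deposited and 0.05 after quantile normalization. It left 1089 probe sets lower and 2489 higher, where 2103 and 1260 were as deposited. Quantile normalization gave 1558 and 1661, an offset of 1 gave 3257 and 1659, and an offset of 100 gave 1251 and 906. Of other phagocyte genes, 51 to 56 were lower and 1 to 3 higher when single arrays were left out (1 higher without control array 2), and 0 were higher on numbered arrays only. Members at least 2-fold higher on control array 2 numbered 4 after quantile normalization, 1 after centring and 1 with an offset of 100. At 4-fold, 2 were higher on control array 1 and 1 on control array 2. Averaging a gene's probe sets lowered the difference between control arrays 1 and 2 to 0.82 for Cd68. Kept members numbered 2 to 4 when single arrays were left out. Lgals3 was no longer kept with an offset of 1, against the 75th percentile of a line, on unnumbered arrays only or without replicate 2 of gammaA7, and Lsp1 was added without gammaD12. The F-test over lines passed 7 members on numbered arrays only, 1 (Ccl3) over the 6 lines with 2 or 3 arrays, and 0 to 1 when single arrays were left out (Lsp1 without the unnumbered array of A2B1). With the replicate number as a block it passed 0 members. Deviations of same-numbered arrays correlated at 0.172 to 0.538 for unnumbered arrays (median 0.261). They correlated at 0.061 to 0.67 for replicate 1 (median 0.16) and at 0.059 to 0.698 for replicate 2 (median 0.12). All were positive, but many were weak, and the numbers were not taken to pair samples. These values do not settle whether they do. The causes of these changes were not tested.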

Other observations

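In all, 14 members had more than 1 probe set, with 15 probe sets beside the brightest ones. Of these 15, 6 were called lower in the lines, 0 higher and 9 were not called. Another probe set of Csf1r had a signal of 60.8 ± 19.2 in the lines (SD, n = 11), against 49.8 and 49.5 on control arrays 1 and 2, a log2 difference of 0.14 (SE 0.22, limma adjusted p = 0.624), whereas its brightest probe set stood at -3.17. Another probe set of Laptm5, with 41.8 ± 23.4 in the lines, against 4334 and 3043 on control arrays 1 and 2, stood at -5.72 beside -5.96 for the brightest. A probe set that the annotation gives to both lysozyme genes had 2.52 in the lines, against 9962 and 10208 on control arrays 1 and 2, so the control arrays differed by -0.03 on the log2 scale.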
